A study of Mus musculus with 6 samples.

Results

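Calcium-binding S100 proteins and calcium-dependent membrane-binding annexins were followed here in macrophages sorted from tumour-bearing mammary glands. The 10 genes were S100a1, S100a4, S100a6, S100a10, S100a11, Anxa1, Anxa2, Anxa3, Anxa4 and Anxa5, chosen by exact match of the gene symbol, and all 10 were found among the 43432 genes of the deposited table. They leave out S100a8 and S100a9, S100 genes abundant in neutrophils. Every mouse was a female of the FVB/N strain carrying the MMTV-PyMT transgene, a mammary tumour model in which the polyomavirus middle T oncogene is under the long terminal repeat promoter of the mouse mammary tumour virus. The transgene was present at both ages, no mice without it were compared, and this promoter acts chiefly in mammary epithelium rather than in macrophages. The older group held 3 libraries taken at 11 weeks of age, and the younger group 3 libraries taken at 8 weeks, sorted as live CD45+ MHCII+ CD14+ cells. Samples carry the letters an and a number within each age. The letters may stand for animal, but nothing in the labels spells them out or says whether samples were separate animals or pools. The p-values given here therefore rest on a sample-to-sample spread that could be technical.

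S100 proteins are small EF-hand proteins that usually act as dimers, and on binding calcium most of them expose a surface that grips partner proteins. Annexins bind acidic phospholipids of membranes when calcium rises, and they take part in membrane repair, vesicle traffic and the clearing of dying cells. The families meet in pairs: S100A10 binds annexin A2, and S100A11 binds annexin A1. In macrophages the S100A10 and annexin A2 complex is known as a docking site for plasminogen and its activator at the cell surface, and secreted annexin A1 is known as a ligand of formyl peptide receptors that limits inflammation.

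All 10 genes were well expressed, with 459 to 19832 recovered reads per gene and library. Values are normalized counts as the authors deposited them, in which all genes of a library share a single size factor. Depth ran from 38784433 to 75004877 recovered reads per library, of which 35.2% to 51.8% came from mitochondrial ribosomal RNA. Summed over 12 macrophage marker genes, the libraries held 836795.3, 931550 and 836759.7 at 11 weeks, against 772289.8, 981067.3 and 792312.5 at 8 weeks, and the ages overlapped. Lyz2, which encodes lysozyme, held the largest part of this sum. Of the 12 genes 4 did not overlap between the ages, and none passed the test. Fcgr1, Mrc1 and C1qb were higher and Csf1r, the receptor gene of colony-stimulating factor 1, lower at 11 weeks. For this and the following lists, 11.9% of all tested genes did not overlap, 6.81% with 11 weeks higher and 5.12% with 11 weeks lower. The monocyte list of 10 genes summed to 90615.6 to 103342.3 at 11 weeks and 72560.5 to 98184.3 at 8 weeks. F13a1 held the largest part of this sum, at 64123.3 to 80213.7 at 11 weeks and 46757.9 to 64515.9 at 8 weeks, which overlapped. Of the list Vcan lay higher and Itga4 lower at 11 weeks without overlap. Their log2 fold changes were 1.32 for Vcan (limma adjusted p = 0.35) and -1.05 for Itga4 (limma adjusted p = 0.155). The mammary epithelium list of 14 genes summed to 50816, 26543.9 and 47451.7 at 11 weeks, against 9330.1, 10480.5 and 12749.1 at 8 weeks. Csn3, a milk casein gene, held the largest part of this sum, at 19883.5 to 32482.5 at 11 weeks and 5232.1 to 8277.1 at 8 weeks. All 14 genes of the list were detected, and 13 had positive log2 fold changes. Of the 14 genes 5 did not overlap between the ages, each of these higher at 11 weeks, and Csn3 passed the test. The fibroblast list of 10 genes, all detected, summed to 1913.2 to 3584.5 at 11 weeks and 750.8 to 1363.1 at 8 weeks. The neutrophil list of 13 genes summed to 6626.4 to 7182.5 at 11 weeks and 2974.9 to 5476.5 at 8 weeks. Csf3r held the largest part of this sum, at 2384.2 to 2603.9 at 11 weeks and 1358.9 to 3183.6 at 8 weeks, which overlapped. Elane, which encodes neutrophil elastase, was at 0 in every library, and Ly6g and Camp reached at most 0.9 and 2.8. Of the 10 tested genes of this list 4 lay higher at 11 weeks without overlap, S100a8, S100a9 and Cxcr2 among them. Mmp9 alone lay lower without overlap. Cxcr2 stood at 341.1, 900.2 and 432.3 at 11 weeks, against 82.9, 90 and 3.4 at 8 weeks (limma adjusted p = 0.213). In such bulk samples fewer cells of a type and less RNA per cell cannot be told apart.

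S100a10 (ENSMUSG00000041959) had the largest difference between the ages among the 10 genes. It stood at 9542.4, 9415.5 and 11311.2 normalized counts in the 11-week libraries, against 6138.9, 7011.4 and 6351.1 in the 8-week libraries. Every 11-week library lay above every 8-week library, and the spread within each age was small, with a coefficient of variation of 10.5% at 11 weeks and 7% at 8 weeks. The log2 fold change was 0.63 ± 0.18 (SE), a 1.55-fold difference with a 95% interval of 1.19 to 2.02, and it did not pass the threshold over all genes (limma adjusted p = 0.31). S100A10, also called p11, is the S100 protein that cannot bind calcium and stays in its partner-binding shape. In the authors' deposited table, the gene S100a10 had a fold ratio of 1.522 and an adjusted p of 0.029, and it was the only one of the 10 genes under 0.05 there. DESeq2, which made more false calls than limma or edgeR on simulated data, gave an adjusted p of 0.0269 on the recovered reads, and edgeR's quasi-likelihood test on the same reads gave 0.367.

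The 10 genes were read against the whole set of tested genes. The limma fit covered 21675 genes and called 11 of them at an adjusted p under 0.05, a share of 0.0507%, made up of 0.0369% higher and 0.0138% lower at 11 weeks, and it called none of the 10. DESeq2 called S100a10 alone among the 10, as higher at 11 weeks, where it called 2.73% of the genes given an adjusted p in either direction and 1.72% as higher. The authors' deposited table lists 1.91% of its genes under 0.05, and 1.13% as higher at 11 weeks. Unadjusted limma p-values were under 0.05 for S100a10 and Anxa1, 2 of the 10 genes and both higher at 11 weeks, against 8.03% of all tested genes in either direction and 4.76% as higher. The values of these 2 genes did not overlap between the ages. Over all tested genes 11.9% did not overlap, 6.81% with 11 weeks higher and 5.12% with 11 weeks lower. Among the 4958 tested genes whose mean level lay within the range of the 10, the share was 16.9% in either direction and 7.66% with 11 weeks higher. The 2 of 10 are a count over few genes, given without a test. Without 8-week library 1, the values of 4 of the 10 genes did not overlap, S100a6 and Anxa2 among them, and in that smaller comparison neither did those of 21.1% of all tested genes. With edgeR's TMM factors as scaling, S100a10 alone of the 10 did not overlap, where 12.0% of all tested genes did not, and with library totals S100a10 alone again, where 10.7% did not. The median log2 fold change was 0.13 over the 10 genes, 0.02 over the 5 S100 genes and 0.24 over the 5 annexins, against 0.05 over all genes tested. Of the 10 estimates 7 were positive, as were 52.8% over all genes tested and 44.7% over those within the range of mean levels.

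**Figure D1:**
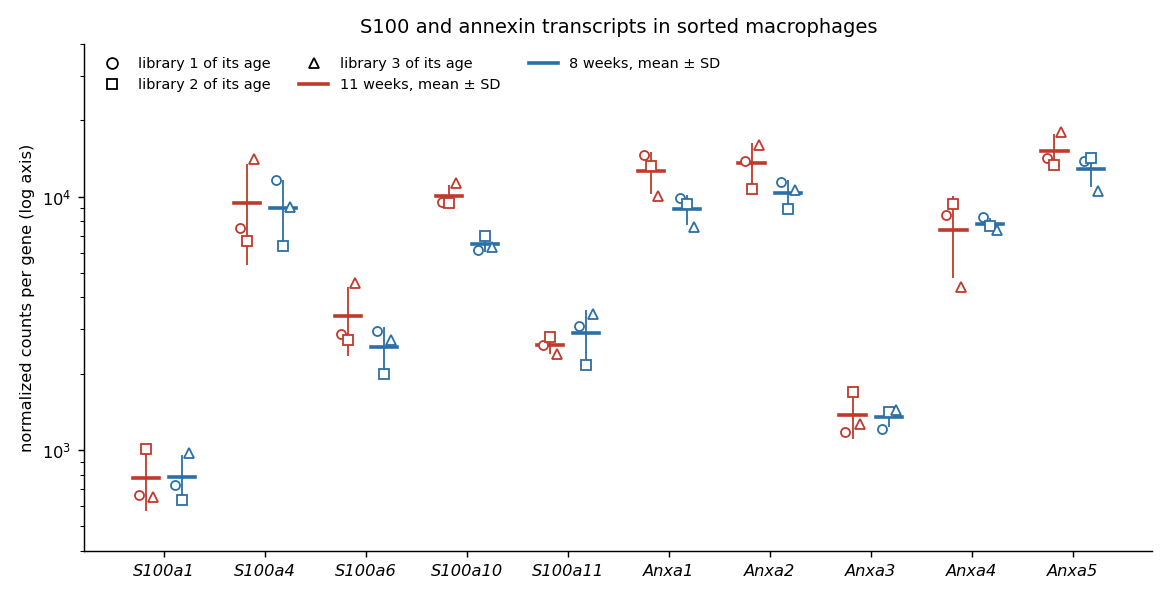
Normalized counts per gene (log axis) of the 10 genes, with 11 weeks at the left of each pair and 8 weeks at the right; each symbol is a library, bars are means and vertical lines the SD of 3 libraries. S100a10 and Anxa1 are the genes whose ages do not overlap, with the 3 libraries of S100a10 at 9415.5 to 11311.2 at 11 weeks and 6138.9 to 7011.4 at 8 weeks.

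**Figure D2:**
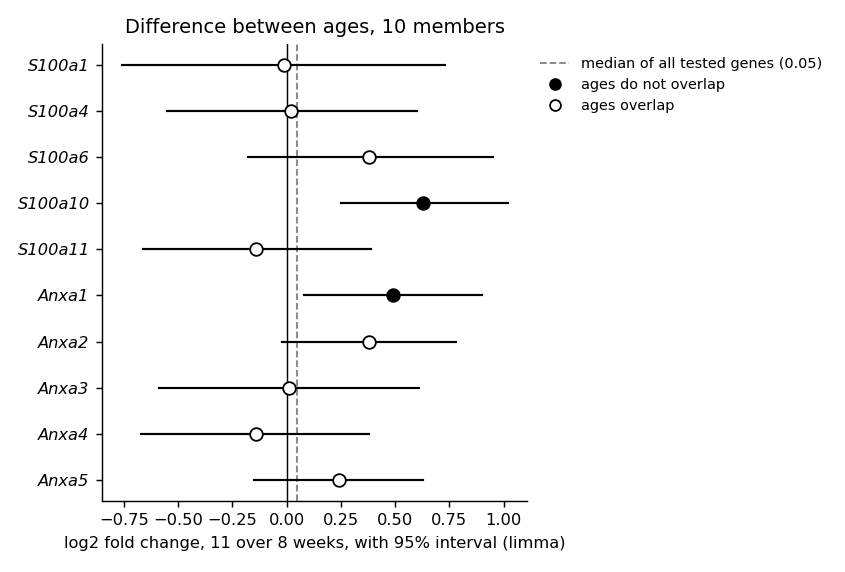
Log2 fold change of each gene, 11 over 8 weeks, with its 95% interval from limma; filled points mark the genes whose ages do not overlap, and the dashed line is the median of all tested genes (0.05). The intervals of S100a10 (0.25 to 1.02) and Anxa1 (0.08 to 0.90) lie above 0, and those of the other 8 genes include 0.

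Promoter windows of RefSeq (GRCm38.p6), from 250 bases before to 50 after a transcription start, were matched by symbol for 8 of the 10 genes. The 3 that hold a TATA box are printed, because they include Anxa1, whose ages do not overlap, Anxa2, the partner of S100A10, and S100a4, the gene with the highest level per length. Capitals mark TATAAA and, in Anxa2, the AP-1 motif TGANTCA, searched on both strands, and the marked motifs do not overlap. The windows are chr19:20390622-20390921 on the minus strand for Anxa1, chr9:69453433-69453732 on the plus strand for Anxa2 and chr3:90603520-90603819 on the plus strand for S100a4.
Anxa1: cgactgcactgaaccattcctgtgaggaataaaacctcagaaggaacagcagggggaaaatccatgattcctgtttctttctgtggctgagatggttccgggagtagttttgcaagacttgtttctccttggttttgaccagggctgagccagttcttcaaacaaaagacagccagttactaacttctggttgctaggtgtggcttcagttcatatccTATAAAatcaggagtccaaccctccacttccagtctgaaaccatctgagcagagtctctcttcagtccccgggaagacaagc
Anxa2: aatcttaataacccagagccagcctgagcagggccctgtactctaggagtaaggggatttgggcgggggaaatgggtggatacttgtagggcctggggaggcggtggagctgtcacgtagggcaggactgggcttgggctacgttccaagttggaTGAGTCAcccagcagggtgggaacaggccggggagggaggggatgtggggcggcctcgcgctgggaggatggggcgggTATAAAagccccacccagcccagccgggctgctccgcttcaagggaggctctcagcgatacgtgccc
S100a4: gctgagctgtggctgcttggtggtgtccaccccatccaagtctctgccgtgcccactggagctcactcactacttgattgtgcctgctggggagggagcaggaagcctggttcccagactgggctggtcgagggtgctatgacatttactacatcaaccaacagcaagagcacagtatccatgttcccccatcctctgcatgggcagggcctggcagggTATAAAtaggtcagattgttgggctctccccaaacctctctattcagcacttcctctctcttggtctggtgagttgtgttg
The first base of the TATA box lies 32 bases before the start in Anxa1, 17 in Anxa2 and 31 in S100a4, and 13.6% of all 32851 windows hold TATAAA. The AP-1 motif was found in Anxa2, 95 bases before the start, and in S100a11, 136 and 38 bases before it, and in 7.81% of all windows. Of these genes Anxa2 and S100a11 had log2 fold changes of 0.38 and -0.14, neither past the test. The GC box GGGCGG, not marked, was found in Anxa2, Anxa4 and S100a11 and in 35.7% of all windows. A match describes the letters and is not a binding site.

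Among the remaining S100 genes, S100a6, also called calcyclin, stood at 2858.7, 2718.8 and 4575.3 normalized counts at 11 weeks, against 2946, 1999.1 and 2716.9 at 8 weeks. A single 11-week library, number 3, lay well above the rest, and the ages overlapped (log2 fold change 0.38 ± 0.26, SE; limma adjusted p = 0.776). S100a4, known as metastasin and as a binder of non-muscle myosin IIA, stood at 7548, 6657.4 and 14046.6 normalized counts at 11 weeks, against 11576.1, 6386.6 and 9088.4 at 8 weeks. The widest spread of the 10 genes within the 11-week libraries was that of S100a4, with a coefficient of variation of 42.8%, and the fold between the ages was 1.02, with a 95% interval of 0.683 to 1.51. S100a4 and S100a6 ranked the libraries alike within each age, with number 3 highest and number 2 lowest at 11 weeks, and number 1 highest and number 2 lowest at 8 weeks. The log2 fold change of S100a4 turned to -0.31 without 11-week library 3 and to -0.20 without 8-week library 2. The fibroblast list, too, had its highest sum in 11-week library 3, at 3584.5, but at 8 weeks its lowest sum was in library 3, at 750.8, where S100a4 and S100a6 were not lowest. Its part in these values was not tested.

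S100a11, whose product pairs with annexin A1, stood at 2604.9, 2780.3 and 2386.4 normalized counts at 11 weeks, against 3082.4, 2161.2 and 3444.6 at 8 weeks. Its 11-week values lay inside the 8-week range, with a coefficient of variation of 7.62% at 11 weeks and 22.8% at 8 weeks. S100a1, best known as a regulator of calcium release in heart muscle, had the lowest counts of the 10, at 666.6, 1012.1 and 655.3 at 11 weeks, against 729.4, 635.9 and 973.7 at 8 weeks. The 95% interval of the fold, 11 over 8 weeks, was 0.633 to 1.31 for S100a11 and 0.593 to 1.66 for S100a1. Both intervals include no difference, along with lower and higher folds up to these bounds.

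Anxa1 (ENSMUSG00000024659) was the annexin with the largest difference between the ages. It stood at 14608.7, 13232.1 and 10013.3 normalized counts at 11 weeks, against 9833.8, 9354.1 and 7555.3 at 8 weeks. The groups were separated by the narrow gap between 11-week library 3 and 8-week library 1, and the log2 fold change of 0.49 ± 0.19 (SE) did not pass over all genes (limma adjusted p = 0.524). Anxa2, the partner of S100A10, stood at 13878.7, 10724 and 16040.6 normalized counts at 11 weeks, against 11431.7, 8921.8 and 10603.6 at 8 weeks. One 11-week library, number 2, lay below 8-week library 1, and the log2 fold change was 0.38 ± 0.19 (SE; limma adjusted p = 0.648). Per exonic kilobase, S100a10 RNA stood to Anxa2 RNA at 2.12, 2.7 and 2.17 at 11 weeks, against 1.65, 2.42 and 1.84 at 8 weeks. The size of this ratio depends on the exonic lengths used. This ratio averaged 2.33 ± 0.32 at 11 weeks and 1.97 ± 0.40 at 8 weeks (SD, n = 3 each; exact permutation p = 0.3, two-sided, adjusted p = 0.45 over 3 ratios), a difference within the spread of the libraries.

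Anxa5, which binds the phosphatidylserine of apoptotic cells and is the reagent of the annexin V assay, stood at 14216.1, 13354.1 and 17974.7 normalized counts at 11 weeks, against 13854.2, 14247.2 and 10561.8 at 8 weeks. Its ages overlapped (log2 fold change 0.24 ± 0.18, SE; limma adjusted p = 0.795). Anxa4, known from secretory epithelia, stood at 8456.5, 9316.7 and 4416.6 normalized counts at 11 weeks, against 8274.4, 7663.9 and 7358.9 at 8 weeks. Its lowest value was in 11-week library 3, where S100a4, S100a6, S100a10, Anxa2 and Anxa5 had their highest. Its log2 fold change was -0.14 ± 0.25 (SE; limma adjusted p = 0.889) and turned to 0.19 without that library. Anxa3, an annexin abundant in neutrophils, stood at 1173.3, 1687.5 and 1269.8 normalized counts at 11 weeks, against 1216.2, 1413.1 and 1435.7 at 8 weeks. It was the annexin with the lowest counts, averaging 1377 ± 273 at 11 weeks and 1355 ± 121 at 8 weeks (SD, n = 3 each; limma adjusted p = 0.994).

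**Figure D3:**
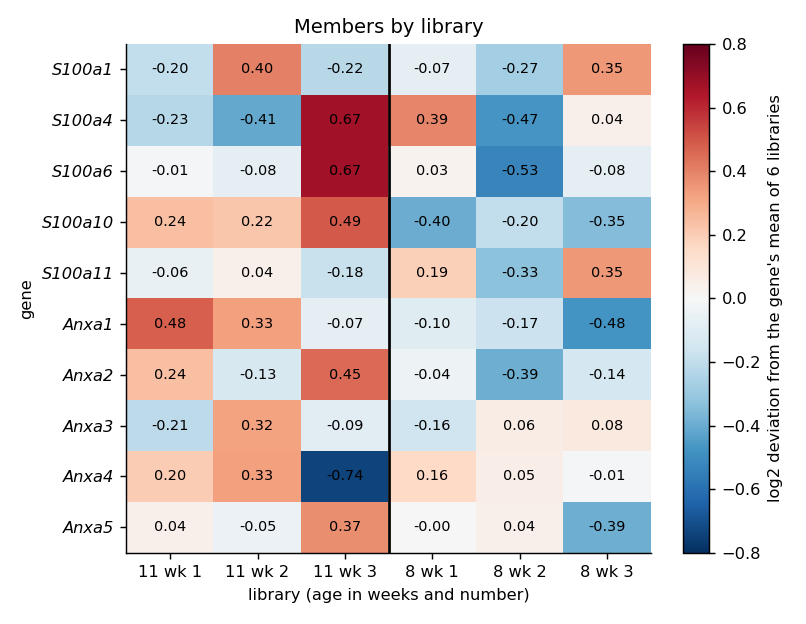
Log2 deviation of each gene in each library from its mean over the 6 libraries, red above and blue below, with the 11-week libraries left of the line. 11-week library 3 holds the highest value of 5 genes and the lowest of Anxa4 (-0.74), and 8-week library 2 the lowest value of 5 genes.

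Across libraries the genes did not move as 1 block. The highest value fell in 11-week library 3 for 5 genes, in 11-week library 2 for S100a1, Anxa3 and Anxa4, in 11-week library 1 for Anxa1 and in 8-week library 3 for S100a11. The lowest value fell in 8-week library 2 for S100a1, S100a4, S100a6, S100a11 and Anxa2. The range over the 6 libraries was 1.44-fold for Anxa3 and 2.29-fold for S100a6, the extremes of the 10. Summed, the 5 annexins took 0.186%, 0.173% and 0.182% of the counts outside mitochondrial genes at 11 weeks, against 0.168%, 0.15% and 0.135% at 8 weeks. These shares did not overlap, and no test was made on the sum. With single genes scaled by the same totals, none of the annexins was without overlap, and 11.8% of all tested genes were. Anxa3 and Anxa4 had log2 fold changes of -0.01 and -0.16 under that scaling. The 5 S100 genes took 0.0824%, 0.0808% and 0.121% at 11 weeks, against 0.092%, 0.0655% and 0.0814% at 8 weeks, which overlapped. Of 10717 candidate genes, those averaging 100 or more, the 3 most like the mean standardized profile of the 10 genes over the 6 libraries were Sos2, Nsun3 and Ppan, with Pearson r of 0.995, 0.991 and 0.990, given as a description of 6 points that share their depth and scaling.

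Levels of different genes were compared per exonic kilobase of GENCODE M21. The length of a gene was the union of all its annotated exons, which can exceed the length of the transcript expressed. The order of genes given here rests on these lengths. S100a4 led at both ages, at 16126 ± 6907 normalized counts per exonic kb at 11 weeks and 15440 ± 4444 at 8 weeks (SD, n = 3), above 99.7% of 21438 tested genes. Anxa5 came next, at 8543 ± 1383 at 11 weeks and 7253 ± 1139 at 8 weeks, and S100a10 stood at 8325 ± 874 at 11 weeks and 5363 ± 375 at 8 weeks (SD, n = 3). At 11 weeks Anxa5 and S100a10 overlapped and both lay above S100a11, while at 8 weeks S100a10 overlapped S100a11 and S100a11 overlapped Anxa5. S100a11, Anxa1, Anxa2, S100a6, Anxa4 and S100a1 followed in that order at 11 weeks, each overlapping the next. At 8 weeks S100a10 lay above Anxa1, Anxa2 above S100a6 and Anxa4 above S100a1 without overlap. Anxa3 was last at both ages, at 378 ± 75 at 11 weeks and 372 ± 33.1 at 8 weeks (SD, n = 3), still above 86.3% of the tested genes at 11 weeks and 85.6% at 8 weeks.

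**Figure D4:**
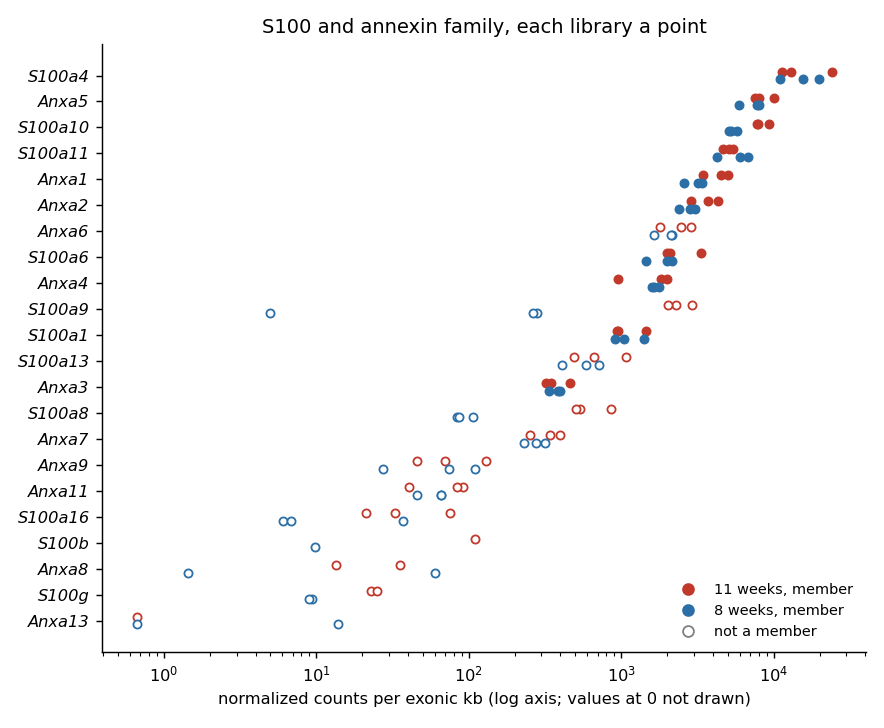
Normalized counts per exonic kilobase (log axis) of S100 and annexin genes detected in any library, ordered by mean; each point is a library, 11 weeks above 8 weeks, with filled points for the 10 genes described and open points for other family members. S100a4 is highest and Anxa3 lowest of the 10, and the open points of S100a8 and S100a9 lie far apart by age.

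All 5 S100 genes lie on chromosome 3, in GRCm38 coordinates from the deposited table. S100a1 covers chr3:90511034-90514392, S100a4 chr3:90603770-90606045 and S100a6 chr3:90612894-90614414. S100a11 covers chr3:93520488-93526287 and S100a10 chr3:93555080-93564643, a separate pair about 3 Mb further on. Between S100a4 and S100a6, which ranked the libraries alike, lies S100a5, and S100a3 lies just before S100a4, and both were at 0 normalized counts in every library, as were S100a2, S100a7a and S100a14. S100a10 and S100a11 are neighbours 28792 bases apart, and the ratio of S100a10 to S100a11 RNA per exonic kilobase was 1.54, 1.43 and 2 at 11 weeks, against 0.84, 1.37 and 0.777 at 8 weeks. The ratio did not overlap between the ages, but 3 libraries against 3 cannot give an exact permutation p below 0.1, and this was the value found (two-sided, adjusted p = 0.3 over 3 ratios). The ratio was below 1 in 8-week libraries 1 and 3 and above 1 in the other 4 libraries. Which side of 1 it falls on depends on the exonic lengths used, while its fold between the ages does not. The count of S100a11 in it is uncertain, as given with the shared sequences.

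**Figure D5:**
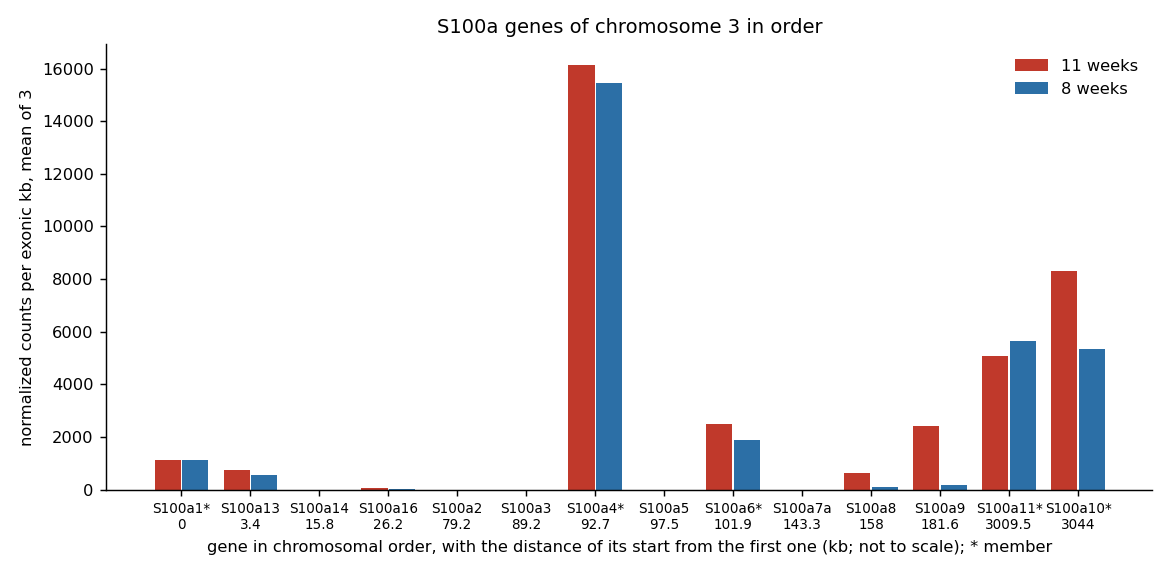
Mean normalized counts per exonic kilobase of the S100a genes of chromosome 3 at 11 weeks (left bar) and 8 weeks (right bar), in chromosomal order with the distance of each start from that of S100a1 in kb; stars mark the genes described, and bars carry no error since the libraries are shown elsewhere. S100a4 stands between S100a3 and S100a5, which were at 0 in every library.

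The annexins are scattered over the genome. Anxa1 covers chr19:20373428-20390944, Anxa2 chr9:69453620-69491795, Anxa3 chr5:96793385-96845968, Anxa4 chr6:86736840-86793584 and Anxa5 chr3:36448926-36475887. All 10 genes are annotated as protein-coding, and each value is 1 total per gene. In GENCODE M21, Gm42674 shares 302 exonic bases with S100a4 on the same strand, or 51.7% of the exonic length of S100a4. The deposited genes do not include Gm42674, so the S100a4 count may hold its reads, which cannot be told apart there. Of the 50-base words in S100a11 transcripts, 41.1% also occur in transcripts of Gm12854, Gm29240 or Gm7665, and the count of S100a11 is uncertain for that reason. For S100a10, S100a1, S100a6, Anxa1 and Anxa5 no such word was shared. Anxa2 overlaps the antisense gene Gm16144 over 98 exonic bases. Gm16144, named after its values were seen, stood at 151.7, 113.9 and 116.9 normalized counts at 11 weeks, against 89.2, 34.6 and 68.3 at 8 weeks, and without strand, reads from the shared stretch, 2.6% of the exonic length of Anxa2, cannot be assigned to either gene.

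Other genes of the families were counted from lists. Of 12 other S100 genes 6 passed the filter on low values, none passed the limma test, and their median log2 fold change was 1.38, set by the few that were detected. The product of S100a8 is abundant in neutrophils and pairs with that of S100a9. S100a8 stood at 371.5, 591.7 and 352.6 normalized counts at 11 weeks, against 74, 58.2 and 59.8 at 8 weeks (log2 fold change 2.73, SE 0.59, limma adjusted p = 0.151). S100a9 stood at 1191.6, 1522.2 and 1051.4 at 11 weeks, against 146.2, 137.2 and 2.6 at 8 weeks (limma adjusted p = 0.175). S100a13, which starts next to S100a1 on the other strand with 42 bases between them, had 350.3, 477.8 and 772.2 at 11 weeks, against 510.9, 292.3 and 421.1 at 8 weeks, which overlapped. S100a16 was low, at 34.4 to 121.4 at 11 weeks and 9.8 to 59.8 at 8 weeks.

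Of 7 other annexins 6 were tested, none passed, and their median log2 fold change was 0.26. The most abundant of them, Anxa6, stood at 8448.2, 5239 and 7282.5 normalized counts at 11 weeks, against 6349.3, 4798.9 and 6231.5 at 8 weeks. Anxa7 stood at 2048.6, 1517.2 and 2393.7 at 11 weeks, against 1374.9, 1644.4 and 1908.9 at 8 weeks. Both genes overlapped between the ages, with limma adjusted p of 0.805 and 0.825. Anxa9 and Anxa13 overlapped as well, Anxa9 at 94.7 to 271 at 11 weeks and 56.4 to 227.2 at 8 weeks, and Anxa13 at 0 to 0.9 at 11 weeks and 0 to 18.8 at 8 weeks.

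Receptors of these proteins numbered 6, of which 5 were tested and none passed, with a median log2 fold change of 0.39. Fpr1, a formyl peptide receptor, stood at 891, 723.8 and 579.2 normalized counts at 11 weeks, against 82.9, 149.6 and 419.4 at 8 weeks (log2 fold change 2.05 ± 0.56, SE; limma adjusted p = 0.283). Fpr2, the receptor best known for binding annexin A1, stood at 988.4, 466.7 and 270.1 at 11 weeks, against 267.5, 205 and 220.4 at 8 weeks (log2 fold change 1.12 ± 0.52, SE; limma adjusted p = 0.616). Neither overlapped between the ages, and both ranked the 11-week libraries from 1 to 3 as Anxa1 did, while at 8 weeks Fpr1 was highest in library 3, where Anxa1 was lowest. The Toll-like receptor gene Tlr4 and the scavenger receptor gene Cd36 overlapped, with log2 fold changes of 0.39 and -0.11. Ager, the receptor for advanced glycation end products, which binds several S100 proteins, was near 0, at 0 to 12.7 at 11 weeks and 0 to 65.1 at 8 weeks. Neutrophils express formyl peptide receptors too. Of the 10 tested genes of the neutrophil list none passed the test. Without overlap, 4 lay higher and 1 lower at 11 weeks, as did 6.81% and 5.12% of all tested genes. The part of such cells in these values was not tested.

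The plasminogen list, which holds the system that the S100A10 and annexin A2 complex serves, had 8 tested genes of 9, none past the test, and a median log2 fold change of 0.37. Plau, which encodes urokinase, stood at 15021.6, 13034.5 and 9022.7 normalized counts at 11 weeks, against 10224.4, 10681.3 and 7272.6 at 8 weeks (limma adjusted p = 0.701). The values of Plau overlapped between the ages. Plat, which encodes tissue plasminogen activator, was low but did not overlap, at 33.1, 84.7 and 57.1 at 11 weeks, against 22.3, 8.3 and 0.9 at 8 weeks (limma adjusted p = 0.606). Eno1, a plasminogen-binding glycolytic enzyme, stood at 905.4 to 1399.2 at 11 weeks and 773 to 1115.4 at 8 weeks, and Plg, the gene of plasminogen itself, was at 0 in every library.

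Binding partners gave 10 tested genes of 13, none past the test, with a median log2 fold change of -0.02. Ahnak, a giant scaffold protein that binds the S100A10 and annexin A2 complex, was abundant, at 124072.1, 103388.2 and 131551.2 normalized counts at 11 weeks, against 118518.8, 100366.4 and 106074.6 at 8 weeks (limma adjusted p = 0.809). Ppfibp1, which encodes a liprin beta bound by S100A4, stood at 3682.5, 2826.7 and 2782.5 at 11 weeks, against 2089.1, 1916 and 1891 at 8 weeks, with no overlap (log2 fold change 0.65 ± 0.24, SE; limma adjusted p = 0.483). Sugt1 and Dlc1 overlapped, with log2 fold changes of 0.33 and -0.72. The 12 genes of calcium-triggered membrane repair were all tested and none passed, with a median of 0.14. Among them Chmp4b, a subunit of the ESCRT machinery, stood at 1653.2, 1638.1 and 1865.3 at 11 weeks, against 1312.5, 1443.6 and 1497.2 at 8 weeks, and Cav1, which encodes caveolin 1, at 293.3, 583.7 and 317.2 at 11 weeks, against 114.1, 79 and 261.4 at 8 weeks. These genes did not overlap (limma adjusted p = 0.817 and 0.531), while the calpain genes Capn1 and Capn2 had log2 fold changes of 0.27 and 0.15.

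The 13 calcium sensors of other families were all tested and none passed, with a median log2 fold change of -0.05. Calr, which encodes calreticulin, stood at 19300.8, 18291.7 and 18574.7 at 11 weeks, against 16223.3, 15854.3 and 17178.5 at 8 weeks. The 11-week values of Calr lay above its 8-week values without overlap, by 0.19 on the log2 scale (limma adjusted p = 0.799). Calm3 and Actn4 overlapped, at log2 fold changes of 0.35 and 0.28.

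Marker sums and sort antigens are given beside S100a10. The fibroblast sum was 2527.8, 1913.2 and 3584.5 normalized counts at 11 weeks, against 1126.2, 1363.1 and 750.8 at 8 weeks. It did not overlap between the ages, and at 11 weeks it ranked the libraries as S100a10 did, number 3 highest and number 2 lowest. S100a10 stood at 9542.4 and 9415.5 in 11-week libraries 1 and 2, a narrow gap. At 8 weeks both were highest in library 2, but the fibroblast sum was lowest in library 3 and S100a10 in library 1. The epithelial and neutrophil sums did not overlap between the ages either. At 11 weeks the epithelial sum was highest in library 1 and lowest in library 2, and the neutrophil sum highest in library 2 and lowest in library 3. Without 11-week library 3, the library with the highest S100a10, its log2 fold change was 0.55, and over all libraries left out in turn it was 0.55 to 0.69. Of the sort antigens, Cd14 stood at 30445, 32594.4 and 38151 normalized counts at 11 weeks, against 22844.6, 23109.5 and 19463.2 at 8 weeks. Ptprc, which encodes CD45, stood at 24310.2, 29260.7 and 24888.4 at 11 weeks, against 37120.6, 33328 and 34233.1 at 8 weeks. Cd14 was higher and Ptprc lower at 11 weeks without overlap (limma adjusted p = 0.198 and 0.434), and of the 5 sort antigens H2-Ab1, a class II chain gene, alone passed the test, as lower (limma adjusted p = 0.0127). What part these shifts have in the S100a10 values was not tested.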

How the data were processed

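RNA-seq was made from 6 libraries of sorted macrophages, 3 per age, with Nugen Ovation and Nextera reagents, per the labels' protocols. STAR 2.4 and DESeq2 1.6 are listed, with the build GRCm38, in the submitters' processing notes. The deposited signal values are gene counts that the authors divided by a size factor per library. The use of strand in counting is not stated. The authors' deposited comparison table also gives a fold ratio, its log2 value and p-values, printed to 3 decimals.

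Whole reads were recovered for at least 99.913% of nonzero values, within 0.05 of a whole number. The test was limma 3.58.1 (R 4.3.3; trend, robust) on log2(value + 1), for genes averaging at least 1 at either age, with Benjamini-Hochberg adjustment and a threshold of 0.05; fold changes on this scale understate those of low genes. DESeq2 1.42.0 and edgeR 4.0.16 used recovered reads. The fits were tested on simulated data, in which DESeq2 had a larger share of false calls than edgeR or limma. DESeq2 also found a larger share of the true differences there. Same-numbered libraries of the ages did not deviate together (correlations -0.038, -0.006 and -0.031), so numbers were not used as pairs. Exonic lengths, each the union of all annotated exons of a gene, and overlaps came from GENCODE M21, promoters from RefSeq. Members and lists were chosen with earlier results of these data known. All 10 genes were named, with all sort antigens counted. Named too were up to 4 tested genes of a list with the smallest unadjusted limma p, and the 3 genes of most similar profile. Ager, Lyz2, Csf3r, Ly6g, Camp, genes at 0 and overlapping genes were named after their values were seen. Some genes of the lists are not reported here.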

Additional observations from a re-analysis of the deposited data

How the results depend on the processing

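The log2 fold change of S100a10 was 0.54 to 0.69 and that of Anxa1 0.38 to 0.65 over 19 settings. Of the 10 genes, 1 was called with DESeq2 (S100a10) and 0 under the other settings. Over all genes, where the main count was 11, calls numbered 4 with library totals, 5 with a pseudocount of 8, 422 with DESeq2, 26 with limma-voom, 45 with the replicate block and 3 to 16 with a library left out. Non-overlapping genes of the 10 numbered 1 with TMM factors, with library totals and with totals without mitochondrial genes (a scaling chosen after seeing the data), and 2 to 4 with a library left out, where 19.6% to 22.2% of all tested genes did not overlap. The estimates of 5 genes changed sign or reached 0, and the cause was not tested. S100a1 was 0.03 with upper-quartile scaling and -0.21 to 0.16 with a library left out. S100a4 was -0.06 with library totals, -0.02 with limma-voom and -0.31 to 0.23 with a library left out. Anxa3 was 0.0 with TMM factors, -0.08 with library totals, -0.01 with totals without mitochondrial genes, -0.01 with limma-voom and -0.15 to 0.12 with a library left out. With a library left out, S100a11 was -0.33 to 0.0 and Anxa4 -0.34 to 0.19. The replicate block changed no call among the 10. With 3 libraries per age, the smallest exact permutation p is 0.1.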
